A study of Caenorhabditis elegans with 6 samples.

Results

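The secreted peptides of the nematode Caenorhabditis elegans are encoded by 3 large gene families: the FMRFamide-like peptide genes (flp), the neuropeptide-like protein genes (nlp) and the insulin-like peptide genes (ins). Members were taken by symbol, with a mean level of at least 0.5 FPKM over the 6 libraries of the study. FPKM counts sequenced fragments per kilobase of transcript, scaled to library size. The epidermal antimicrobial genes nlp-25 to nlp-34, 10 in number, carry nlp symbols but were left out. This gave 116 genes, 30 flp, 62 nlp and 24 ins, of 46589 genes in the files and of 14990 that reached the same level. Whole wild-type hermaphrodites were grown at 20 °C to the L4 larval stage, then given 5 mM tryptophan or kept as controls, and taken as young adults 36 h later. Each group has 3 libraries made from total RNA with a TruSeq kit. The comparison asks whether feeding tryptophan, an essential amino acid, goes with a different level of these transcripts. The labels do not say whether the libraries of a group came from separate cultures, so each p-value reflects the spread among these libraries and no more. In whole animals, fewer cells of a type and less RNA per cell cannot be told apart.

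Neuropeptides are made as precursors. The proprotein convertase EGL-3 cuts a precursor at basic residues, the carboxypeptidase EGL-21 trims the ends, and the peptides are stored in dense core vesicles, released by neurons and other secretory cells, and bound by G protein-coupled receptors. FLP peptides share an amidated C-terminal arginine-phenylalanine ending, whereas the nlp family gathers precursors of unlike sequence. Insulin-like peptides act on the single insulin/IGF receptor DAF-2, which restrains the transcription factor DAF-16 (FOXO). Some of them, such as INS-6, INS-7 and DAF-28, are known as agonists, and others, such as INS-1 and INS-18, as antagonists.

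Library depth was 14.6 to 24.9 M (mega) counted units, estimated from the spacing of the low FPKM values. FPKM values did not add up to the same total in each library. Their sum was lowest in tryptophan 3 (608335.5) and highest in tryptophan 1 (1115615.5), followed by control 1 (1013589.9). Library 1 of each group stood apart from the other 4 libraries. Yolk protein genes (vit-1 to vit-6), made in the adult intestine, had a mean log2(FPKM + 1) of 11.41 in control 1 and 5.81 in tryptophan 1, against 6.66 to 8.77 in the other 4. Major sperm protein genes stood at 3.75 in control 1 and 8.93 in tryptophan 1, against 6.998 to 7.65. Median log2 fold changes of tryptophan against control were -1.13 for yolk, 1.44 for sperm, -1.06 for oocyte, -0.33 for muscle, -0.13 for intestine and 0.57 for hypodermis markers. With libraries 2 and 3 alone they were 1.10, -0.46, -0.16, 0.12, -0.05 and -0.47 in the same order, so the sign turned for yolk, sperm, muscle and hypodermis. In either setting 0 genes of these lists passed the test. The main values are therefore also given for libraries 2 and 3 of each group alone, 2 against 2. Of 12 pan-neuronal markers, 11 reached the floor, and 7 of the 11 were lowest in tryptophan 1 and 2 highest there.

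The flp genes had the highest median level of the 3 families. Mean levels ran from 2.63 FPKM (flp-34) to 40.6 FPKM (flp-28) with a median of 15.2 FPKM, against 7.66 FPKM for nlp and 2.03 FPKM for ins, and all 30 were above 0 in all 6 libraries. Of 31 flp genes in the files only flp-23 missed the floor, at 0.137 FPKM. flp-28 and flp-1, the latter required for normal sinusoidal locomotion, were followed by flp-9, flp-22 and flp-24. By chromosome, 13 of the 30 lie on X.

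The nlp genes spanned the widest range, from 0.542 FPKM (nlp-23) to 228 FPKM (nlp-24). The 3 highest, nlp-24, nlp-36 and nlp-40, were far above the rest of the family, whose next member, nlp-20, averaged 37.2 FPKM. nlp-40 is made in the intestine, where its peptide times the defecation motor program. Opioid-like peptides have been described from nlp-24. Of 68 nlp genes, 6 were below the floor. The nearest was nlp-91 at 0.340 FPKM, and nlp-22, which acts in larval sleep, was at 0 in 5 of the 6 libraries.

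Insulin-like genes were the lowest family. Their median was 2.03 FPKM, 6 of the 24 averaged below 1 FPKM, and only ins-27 (21.4 FPKM) and ins-37 averaged at least 10 FPKM. Of 39 ins genes, 15 missed the floor, the nearest being ins-11 at 0.469 FPKM, just outside, with ins-14 at 0.614 FPKM just inside. At this depth ins-14 rested on 20.6 counted units over all 6 libraries, whereas the flp gene with the fewest had 188. The genes nlp-23, ins-14 and ins-25 reached the floor through the tryptophan group alone, so a higher tryptophan value is built into their membership. Within that group it was tryptophan 1 that carried them, at 2.02, 2.41 and 3.89 FPKM, with the other tryptophan libraries below the floor.

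**Figure D1:**
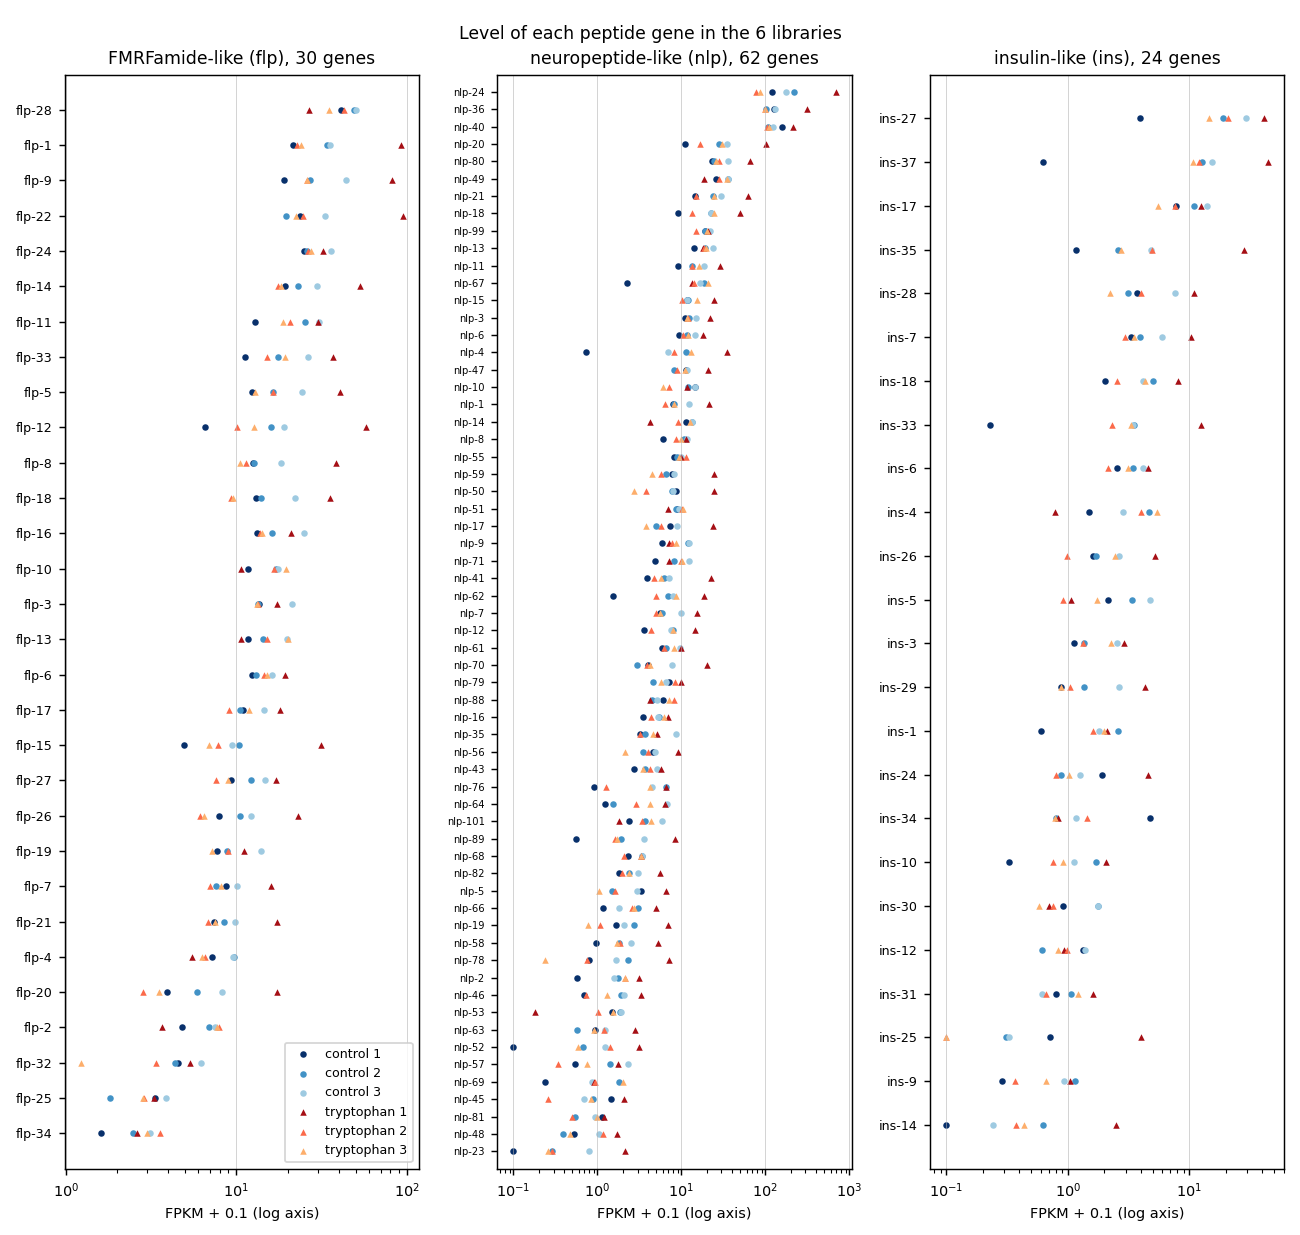
FPKM plus 0.1 on a log axis for each of the 30 flp, 62 nlp and 24 ins genes, ordered by mean level, with one point per library. The median is highest for flp (15.2 FPKM), nlp-24, nlp-36 and nlp-40 lie farthest right, and most ins genes stay below 10 FPKM.

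Peptide genes varied widely between libraries of the same group. Tryptophan 1 was the highest library for 76 of the 116 genes (65.5%, against 36.0% of all genes tested): 17 flp, 43 nlp and 16 ins. These include nlp-23, ins-14 and ins-25, whose membership rests on this library. Relative to each gene's own median over the 6 libraries, tryptophan 1 stood at a median of 1.59-fold for flp, 1.91-fold for nlp and 2.004-fold for ins. Control 1 was the lowest library for 53 genes (45.7%, against 36.5% of all genes tested), 11 flp, 32 nlp and 10 ins. Control 3 was the highest library for another 24 (20.7%, against 4.56% of all genes tested). The family mean of log2(FPKM + 1) in control libraries 1 to 3 was 3.46, 3.75 and 4.11 for flp, and 4.42, 3.56 and 3.56 in tryptophan libraries 1 to 3. For nlp it was 2.46, 2.85 and 3.09 in control and 3.58, 2.63 and 2.79 in tryptophan. For ins it was 1.23, 1.78 and 1.96 in control and 2.46, 1.52 and 1.59 in tryptophan. In all 3 families the tryptophan 1 mean was the highest of the 6 and the other tryptophan libraries lay below control 2 and control 3, so the groups overlapped.

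**Figure D2:**
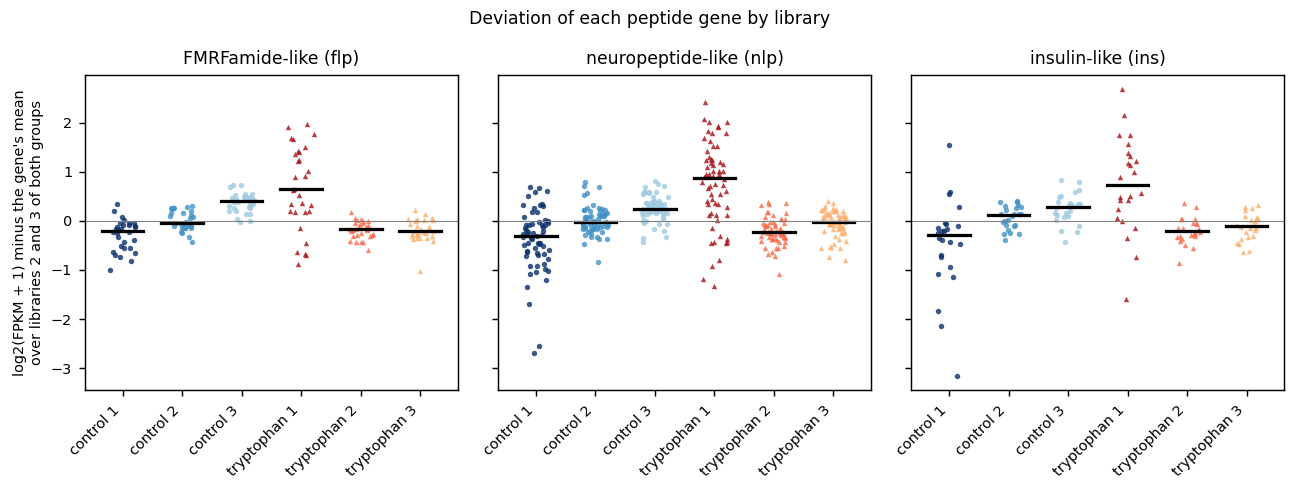
Each point is a peptide gene's log2(FPKM + 1) in a library minus its mean over libraries 2 and 3 of both groups, and black bars are medians. Tryptophan 1 has the highest median in each family (0.65 flp, 0.87 nlp, 0.73 ins) and control 3 the next.

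Transcript length moved with these library differences. Peptide precursor transcripts are short, with a median of 533 bp against 1208 bp for all genes tested, and 103 of the 116 (88.8%) fell between 301 and 750 bp, against 20.5% of all genes tested. Over all genes of 301 to 500 bp, the median log2 deviation of tryptophan 1 from libraries 2 and 3 was 1.39, and it went down to -1.29 for transcripts longer than 3000 bp. Peptide genes of 301 to 500 bp deviated by 1.08 and those of 501 to 750 bp by 0.50, where all genes of that length deviated by 0.95. Tryptophan 1 was the highest library for 76.2% of peptide genes of 301 to 500 bp and for 78.1% of all genes of that length. Over libraries 2 and 3, the median log2 fold change was -0.32 for all genes of 301 to 500 bp and -0.31 for peptide genes of that length. After each library's trend over transcript length was removed, a step chosen after seeing the data, tryptophan 1 was the highest library for 25 of the 116 (21.6%, against 32.2% of all genes). In that setting the medians of the log2 fold changes over all 6 libraries were -0.16 for flp, -0.05 for nlp and -0.11 for ins, 73 of the 116 were negative (51.3% of all genes), and 0 passed the test. The part of length in the group comparison was not tested beyond these values.

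**Figure D3:**
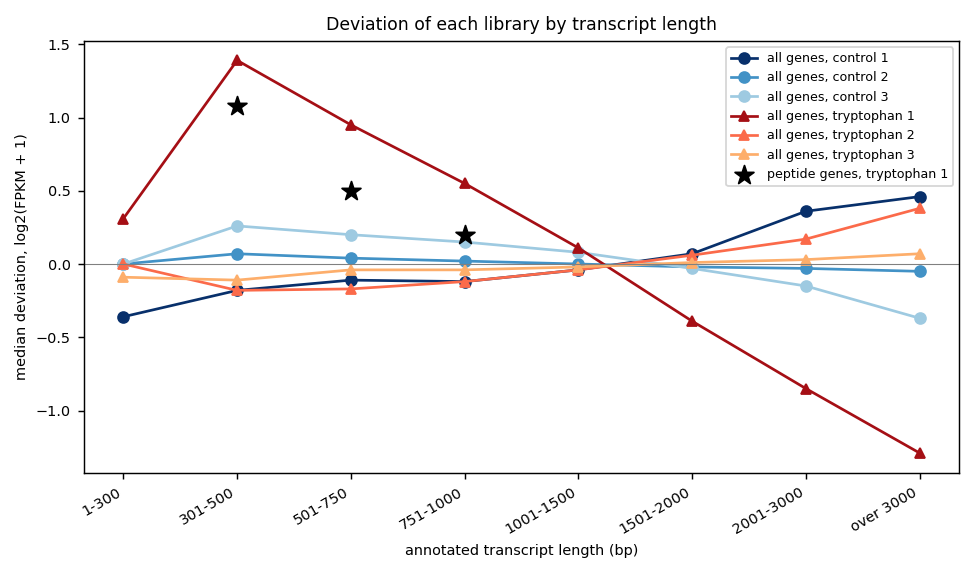
Median deviation of log2(FPKM + 1) from the mean of libraries 2 and 3, by annotated transcript length, for all genes tested (lines, one per library) and for peptide genes in tryptophan 1 (stars, classes of at least 5 genes). The tryptophan 1 line starts at 0.31 for the shortest class and runs from 1.39 at 301 to 500 bp down to -1.29 above 3000 bp, and the stars lie below it on the same downward course.

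No peptide gene passed the test between tryptophan and control. With limma on log2(FPKM + 1), 0 of the 116 had an adjusted p under 0.05 in either direction, as for all 14990 genes tested (0.0%), and the lowest adjusted p among them was 0.805. At an unadjusted p under 0.05, 1 gene was lower with tryptophan, ins-5, and 0 were higher (0.374% and 0.907% of all genes tested). Log2 fold changes were positive for 18 flp, 47 nlp and 17 ins genes, 82 of the 116 (49.4% of all genes were positive and 50.6% negative). The 82 include nlp-23, ins-14 and ins-25, whose membership rests on tryptophan 1. Medians of the log2 fold changes were 0.05 for flp, 0.18 for nlp and 0.18 for ins, against -0.01 for all genes. Without tryptophan 1 the same medians were -0.195, -0.06 and -0.16, and without control 1 the flp median was -0.06. Every tryptophan library was above every control library for nlp-2 alone (background 4.37%), and below for flp-4, nlp-10, ins-5 and ins-30 (background 4.15%). Neither count exceeded the background share.

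ins-5 (ZK84.3, chromosome II, 5997557 to 5999023, plus strand) had the smallest p of the 116. It stood at 2.04, 3.26 and 4.65 FPKM in control libraries 1 to 3 and at 0.970, 0.822 and 1.66 FPKM in tryptophan libraries 1 to 3. All 3 tryptophan libraries, the first included, lay below all 3 controls. Means were 3.32 ± 1.30 and 1.15 ± 0.448 FPKM (SD, n = 3 each), and the log2 fold change was -0.98 (SE 0.37, limma 95% interval -1.86 to -0.10). The unadjusted limma p was 0.0331 and the adjusted p 0.805. The gene rested on 185 counted units over the 6 libraries. Its log2 fold change over libraries 2 and 3 alone was -1.16 (limma adjusted p = 0.313), and with the length trend removed it was -1.16.

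ins-30 (ZC334.2, chromosome I, 14034954 to 14036057, minus strand) had a similar layout at a lower level. Its controls were 0.819, 1.69 and 1.67 FPKM and its tryptophan libraries 0.604, 0.659 and 0.484 FPKM. The groups did not overlap, although control 1 was close to the tryptophan libraries. The log2 fold change was -0.58 (SE 0.28, limma adjusted p = 0.805) and the gene rested on 79.1 counted units.

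nlp-10 (F37A8.4, chromosome III, 3933583 to 3935908, minus strand) was the nlp gene with the lowest log2 fold change. It measured 14.4, 11.8 and 14.4 FPKM in control libraries and 11.5, 7.002 and 5.98 FPKM in tryptophan libraries. The groups did not overlap, but tryptophan 1 lay just below control 2. Means were 13.5 ± 1.49 and 8.15 ± 2.92 FPKM (SD, n = 3 each), and the log2 fold change was -0.71 (SE 0.42, limma adjusted p = 0.805). With the length trend removed it was -0.91.

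flp-4 (C18D1.3, chromosome II, 10048868 to 10055594, plus strand) was the only flp gene whose groups did not overlap. Control libraries had 7.09, 9.59 and 9.51 FPKM and tryptophan libraries 5.405, 6.43 and 6.20 FPKM. Control 1 lay close above tryptophan 2, and the other controls higher. The log2 fold change was -0.46 (SE 0.39, limma adjusted p = 0.805).

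nlp-2 (T24D8.5, chromosome X, 2343947 to 2344766, minus strand) was the only peptide gene with every tryptophan library on the high side. Controls were 0.478, 1.65 and 1.49 FPKM, and tryptophan libraries 3.07, 2.05 and 2.03 FPKM. The groups did not overlap, and control 1 lay far below the other 2 controls. Means were 1.21 ± 0.635 and 2.38 ± 0.591 FPKM (SD, n = 3 each), and the log2 fold change was 0.65 (SE 0.36, limma adjusted p = 0.805). It was 0.24 over libraries 2 and 3 alone.

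Other flp genes near the top by level or by p differed mainly through tryptophan 1. flp-1 (F23B2.5, chromosome IV, 9144705 to 9146128, plus strand) measured 21.5, 33.9 and 35.4 FPKM in control libraries and 91.7, 22.7 and 23.8 FPKM in tryptophan libraries. A single tryptophan library was above all controls, and the other two were below control 2 and control 3. Its log2 fold change was 0.31 (SE 0.61, limma adjusted p = 0.882) over all 6 libraries and -0.56 over libraries 2 and 3. flp-9 (C36H8.3, chromosome IV, 12754558 to 12757570, minus strand) had 81.8 FPKM in tryptophan 1 against 18.9 to 44.1 FPKM in the other 5 libraries, and log2 fold changes of 0.42 (SE 0.58) with and -0.40 without libraries 1. flp-22 (F39H2.1, chromosome I, 8658899 to 8659967, plus strand) had 94.5 FPKM there against 19.3 to 33.1 FPKM, and log2 fold changes of 0.58 (SE 0.61) and -0.11. flp-12 (C05E11.8, chromosome X, 4591281 to 4592350, minus strand) had 57.7 FPKM there, against 6.48 to 19.03 FPKM, and log2 fold changes of 0.60 (SE 0.74) and -0.59. In each of these genes the sign turned when libraries 1 were left out, as it did for flp-15, from 0.56 (SE 0.65) to -0.39.

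flp-28, the highest flp gene (W07E11.4, chromosome X, 10087314 to 10087966, minus strand), went the other way in tryptophan 1. It had 40.9, 48.7 and 50.1 FPKM in control libraries and 26.6, 42.5 and 34.8 FPKM in tryptophan libraries. The groups overlapped through tryptophan 2, which exceeded control 1. The log2 fold change was -0.44 (SE 0.37, limma adjusted p = 0.805). flp-32 (R03A10.2, chromosome X) had the lowest flp log2 fold change, -0.62 (SE 0.49), with 4.45, 4.27 and 6.13 FPKM in control libraries and 5.23, 3.29 and 1.13 FPKM in tryptophan libraries. Its groups overlapped, with tryptophan 1 among the controls, and over libraries 2 and 3 the value was -1.02.

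The sleep-related and egg-laying peptide genes listed here, chosen after their values were seen, had group values that overlapped. flp-11, released by the sleep neuron RIS, had 12.8, 25.2 and 30.6 FPKM in control libraries and 29.8, 20.6 and 18.6 FPKM in tryptophan libraries, with control 1 the lowest library. flp-13, used by the ALA neuron in stress-induced sleep, had 11.6, 14.2 and 19.7 FPKM in control libraries and 10.6, 15.03 and 19.9 FPKM in tryptophan libraries. The tryptophan libraries of flp-13 spanned the same range as the controls. The other ALA sleep peptide genes, flp-24 and nlp-8, had log2 fold changes of 0.00 and 0.09, and -0.18 and -0.27 over libraries 2 and 3. flp-10 and flp-17, whose peptides act on the receptor EGL-6 to inhibit egg laying, had log2 fold changes of -0.01 and 0.07, and 0.05 and -0.23 over libraries 2 and 3. flp-18 and flp-21, which encode ligands of the receptor NPR-1, had log2 fold changes of -0.10 and 0.17 over all 6 libraries and -0.84 and -0.32 over libraries 2 and 3. flp-7, which encodes a tachykinin-related peptide that acts on intestinal fat, had 0.15 over all 6 and -0.19 over libraries 2 and 3.

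The 3 highest nlp genes were all highest in tryptophan 1. nlp-24 (F35B12.7, chromosome V, 11616376 to 11616828, plus strand) had 120.7, 221.1 and 177.4 FPKM in control libraries and 684.5, 76.7 and 87.2 FPKM in tryptophan libraries. Tryptophan 1 exceeded every other library, and tryptophan 2 and 3 were below every control. Means were 173.1 ± 50.4 and 282.8 ± 348 FPKM (SD, n = 3 each), while the log2 fold change was -0.01 (SE 0.83, limma adjusted p = 0.997). It was -1.27 over libraries 2 and 3 (limma adjusted p = 0.164). nlp-24 overlaps the protein-coding gene glb-15 on the opposite strand. nlp-40 (Y74C9A.2, chromosome I, 11495 to 16837, plus strand) measured 158.9, 108.05 and 124.6 FPKM in control libraries and 210.5, 105.4 and 111.5 FPKM in tryptophan libraries. The log2 fold change was 0.07 (SE 0.41), and -0.10 over libraries 2 and 3. nlp-36 (B0464.3, chromosome III, 9488731 to 9489186, plus strand) had 127.9, 101.9 and 130.9 FPKM in control libraries and 309.2, 100.1 and 98.3 FPKM in tryptophan libraries. All controls of nlp-36 lay between tryptophan 1 and the other two, and its log2 fold change was 0.28 (SE 0.51) over all 6 and -0.22 over libraries 2 and 3. It overlaps the aspartyl-tRNA synthetase gene dars-1 on the opposite strand, and the strand setting of the authors' counting is not given.

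nlp-4 (F59C6.6, chromosome I, 10517321 to 10518055, minus strand) had the highest log2 fold change of the 116, 1.62 (SE 0.87, limma adjusted p = 0.805). It stood at 0.632, 11.3 and 6.85 FPKM in control libraries and 35.2, 8.13 and 12.99 FPKM in tryptophan libraries. The lowest value was control 1 and the highest tryptophan 1, and without both libraries the log2 fold change was 0.20. nlp-53 had 1.37, 1.76 and 1.82 FPKM in control libraries and 0.0826, 0.910 and 1.45 FPKM in tryptophan libraries, with a log2 fold change of -0.62 (SE 0.37). Tryptophan 1 was near 0 and tryptophan 3 lay among the controls. nlp-14, an orcokinin-related gene, had 11.1, 13.1 and 13.3 FPKM in control libraries and 4.11, 9.04 and 12.6 FPKM in tryptophan libraries, with a log2 fold change of -0.60 (SE 0.48). nlp-52, listed at 0 in control 1, had a log2 fold change of 0.68 (SE 0.46). Over libraries 2 and 3 these values were -0.37 for nlp-53, -0.28 for nlp-14 and 0.01 for nlp-52. nlp-12, made in the neuron DVA and related to cholecystokinin, and nlp-47, related to gonadotropin-releasing hormone, had log2 fold changes of 0.35 and 0.28 over all 6 libraries and -0.36 and 0.01 over libraries 2 and 3. nlp-3 and nlp-7, which act in egg laying, had 0.18 and 0.12 over all 6 and -0.19 and -0.48 over libraries 2 and 3. At the flat end of the family, chosen after the values were seen, nlp-55 ran over a 1.38-fold range across the 6 libraries, with 8.09 to 11.2 FPKM.

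Among the insulin-like genes named here, the libraries numbered 1 often held the extremes, which was not particular to this family. Over the whole ins family a library numbered 1 was the highest about as often as over all genes tested, and the lowest less often. ins-37 (F08G2.6, chromosome II, 13835101 to 13836107, minus strand) had 0.526, 12.8 and 15.2 FPKM in control libraries and 44.8, 12.04 and 10.6 FPKM in tryptophan libraries. Control 1 was close to 0, tryptophan 1 was the highest library, and the remaining 4 lay together. ins-37 overlaps the small nuclear RNA gene F08G2.9 on the same strand and the non-coding RNA gene R05D7.8 on the opposite strand. Its log2 fold change was 1.45 (SE 1.01, limma adjusted p = 0.805) over all 6 libraries and -0.28 over libraries 2 and 3. ins-35 (K02E2.4, chromosome V, 20375536 to 20376302, plus strand) had 1.08, 2.48 and 4.80 FPKM in control libraries and 28.3, 4.88 and 2.65 FPKM in tryptophan libraries, and a log2 fold change of 1.30 (SE 0.82) that was 0.05 over libraries 2 and 3. ins-33 ran from 0.130 FPKM in control 1 to 12.5 FPKM in tryptophan 1, a 96.2-fold range that was the widest of the genes with a value above 0 in every library. The log2 fold change of ins-33 was 1.03 (SE 0.75) over all 6 and -0.25 over libraries 2 and 3. ins-27, the highest ins gene, had 3.82, 18.9 and 29.4 FPKM in control libraries and 41.3, 20.8 and 14.5 FPKM in tryptophan libraries, with a log2 fold change of 0.77 (SE 0.76), and -0.42 over libraries 2 and 3. Its control 1 was the lowest library, and the groups overlapped. ins-17 had 7.66, 10.95 and 14.04 FPKM in control libraries and 12.3, 7.49 and 5.46 FPKM in tryptophan libraries, and log2 fold changes of -0.36 (SE 0.47) over all 6 and -0.86 over libraries 2 and 3. ins-34 was the reverse of most, highest in control 1 at 4.62 FPKM against 0.683 to 1.34 FPKM in the other 5 libraries, with log2 fold changes of -0.51 (SE 0.49) over all 6 and 0.08 over libraries 2 and 3.

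The agonist and antagonist genes named at the outset had overlapping groups. ins-7, an agonist, had 3.20, 3.86 and 5.84 FPKM in control libraries and 10.3, 2.86 and 3.39 FPKM in tryptophan libraries, and 0.15 (SE 0.53) as its log2 fold change. ins-6, another agonist, had a log2 fold change of -0.05 (SE 0.40), and daf-28, a related agonist gene with a different symbol, one of -0.48 (SE 0.50). The antagonist genes ins-1 and ins-18 had log2 fold changes of 0.21 (SE 0.39) and 0.29 (SE 0.51). Over libraries 2 and 3 the values were -0.49 for ins-7, -0.42 for ins-6, -0.20 for daf-28, -0.19 for ins-1 and -0.38 for ins-18, all below 0.

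**Figure D4:**
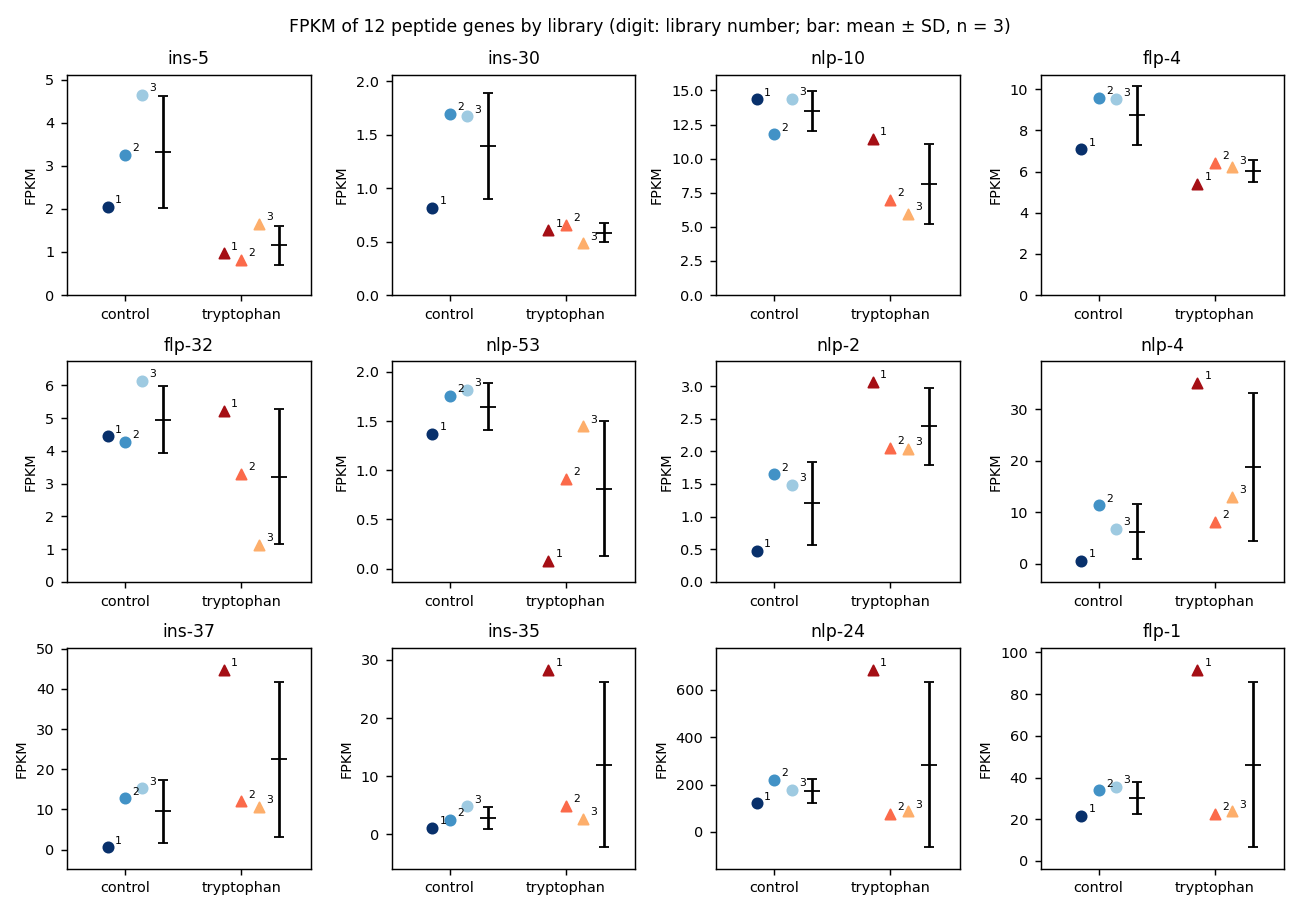
FPKM of 12 peptide genes in the control and tryptophan libraries, with each point labelled by its library number and bars showing mean ± SD (n = 3). For ins-5, ins-30, nlp-10 and flp-4 the tryptophan points lie below the controls, for nlp-2 above them, and for nlp-4, ins-37, ins-35, nlp-24 and flp-1 tryptophan 1 stands highest.

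Over libraries 2 and 3 of each group alone, most peptide genes had lower values with tryptophan. Log2 fold changes were negative for 24 of 30 flp, 47 of 62 nlp and 20 of 24 ins genes, 91 of the 116 against 52.1% of all genes, with medians of -0.40, -0.23 and -0.28 against -0.02. Of all genes 47.5% were positive. Among genes of 301 to 500 bp, 79.9% of all genes and 76.2% of peptide genes were negative. Both tryptophan libraries were below both controls for 47 genes (16 flp, 20 nlp, 11 ins; background 24.2%) and above them for 4 (background 21.3%). None of the 116 had a limma adjusted p under 0.05 (2 of all genes tested did, 0.0133%), and at an unadjusted p under 0.05, 22 were lower and 1 higher (background 7.53% and 4.74%). With the length trend removed as well, the medians were -0.16 for flp, 0.02 for nlp and -0.05 for ins, and 63 of the 116 were negative, against 49.7% of all genes. In that setting flp genes were still mostly negative, 22 of 30. At an unadjusted limma p under 0.05, 11 of the 116 were then lower and 3 higher. Of all 14837 genes in that setting, 807 were lower and 699 higher at that level.

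Markers of other tissues also differed between the same 4 libraries. All 6 yolk genes had positive log2 fold changes, 4 of them with both tryptophan libraries above both controls. All 30 major sperm protein genes had negative ones, 24 of them with both tryptophan libraries below both controls. Of 6 hypodermis genes, 4 lay below both controls in this way and 1 above. Over all genes tested, 24.2% lay below and 21.3% above. Median transcript lengths were 4935 bp for the yolk genes and 384 bp for the major sperm protein genes. Of all genes longer than 3000 bp, 4.28% had negative log2 fold changes over these libraries, against 79.9% of those of 301 to 500 bp. The part of these tissues in the peptide gene values was not tested.

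Several of the lowest log2 fold changes over libraries 2 and 3, picked here after the values were seen, belonged to genes that stood highest in tryptophan 1. nlp-50 had 8.48, 7.54 and 7.74 FPKM in control libraries and 24.2, 3.73 and 2.60 FPKM in tryptophan libraries, and -1.07 over libraries 2 and 3. flp-20, made in touch receptor neurons, had 3.81, 5.78 and 8.14 FPKM in control libraries and 17.2, 2.72 and 3.42 FPKM in tryptophan libraries, and -0.96. flp-18 had 13.01, 13.9 and 21.9 FPKM in control libraries and 35.3, 9.26 and 9.40 FPKM in tryptophan libraries. In all 3 genes tryptophan 2 and 3 were below every control while tryptophan 1 was above every control, the layout also seen for nlp-24. The lowest limma adjusted p of the 116 over libraries 2 and 3 was that of nlp-24, 0.164.

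**Figure D5:**
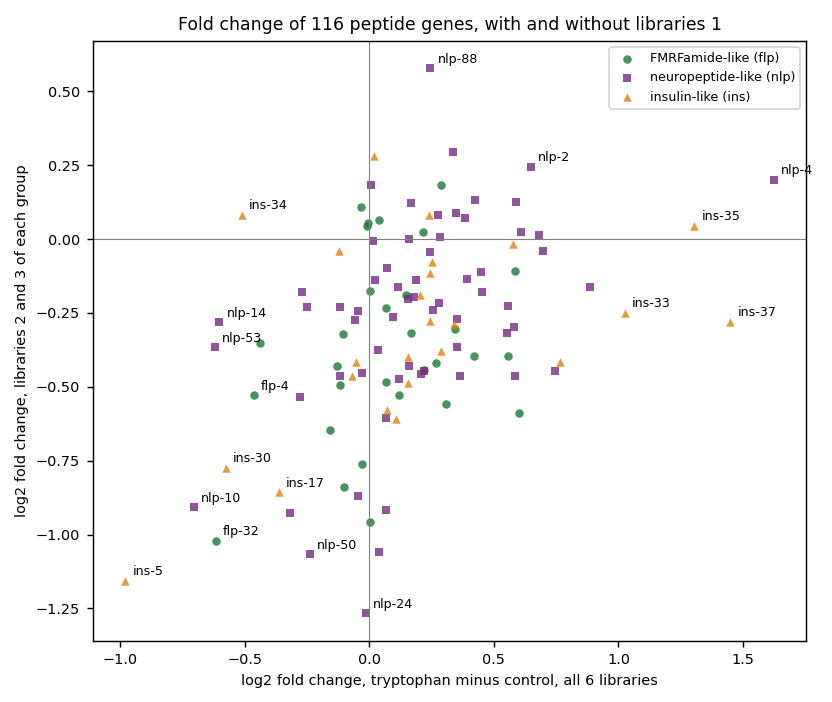
Log2 fold change of tryptophan against control over all 6 libraries (horizontal) and over libraries 2 and 3 of each group (vertical) for 116 peptide genes, colored by family. Most points lie below 0 on the vertical axis, 91 of 116, while 82 of 116 lie right of 0 on the horizontal axis.

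Some peptide genes lie side by side in the genome. Within 10 kb of one another, ins-28, ins-29, ins-25, ins-27, ins-24, ins-30 and ins-26 occupy chromosome I from 14012369 to 14037777, and 6 of these 7 were highest in tryptophan 1, with ins-30 the exception. ins-3, ins-4, ins-5 and ins-6 occupy chromosome II from 5990099 to 6001009, where log2 fold changes ran from -0.98 (ins-5) to 0.25 (ins-3). flp-28, flp-3 and flp-2 occupy chromosome X from 10087314 to 10095245, and 0 of the 3 were highest in tryptophan 1. nlp-45, nlp-23 and nlp-2 occupy chromosome X from 2337600 to 2344766, and all 3 were highest in tryptophan 1. The number of neighbours highest in tryptophan 1 thus ran from none to all, by group. Of these neighbours, ins-25 and nlp-23 reached the floor only through that library. In all, 23 of the 116 overlap an exon of another gene, 16 of them a protein-coding gene on the opposite strand.

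The machinery that makes, releases and receives the peptides had no gene past the test. Among 11 precursor-processing enzyme genes, 2 log2 fold changes were positive and 9 negative with a median of -0.36, and over libraries 2 and 3 the median was 0.06. egl-3 had 32.2, 28.9 and 20.7 FPKM in control libraries and 1.55, 38.5 and 27.2 FPKM in tryptophan libraries, so that tryptophan 1 was far below every other library. Its log2 fold change was -0.97 (SE 0.99), and 0.39 over libraries 2 and 3. egl-21 had 49.0, 55.8 and 58.0 FPKM in control libraries and 16.8, 56.8 and 47.6 FPKM in tryptophan libraries, and a log2 fold change of -0.58 (SE 0.51) that was -0.13 over libraries 2 and 3. sbt-1, which encodes the 7B2 chaperone of the convertase, had 51.5, 50.2 and 57.8 FPKM in control libraries and 32.6, 44.1 and 38.4 FPKM in tryptophan libraries. Its groups did not overlap, and the log2 fold change was -0.47 (SE 0.35, limma adjusted p = 0.805).

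The 11 dense core vesicle genes had a median log2 fold change of -0.03 over all 6 libraries and 0.31 over libraries 2 and 3, where 7 of 11 were positive. For 11 pan-neuronal genes the medians were 0.05 and 0.17, with 8 of 11 positive over libraries 2 and 3. In libraries 2 and 3 these medians were above 0 and those of the peptide families below 0. The pan-neuronal gene with the highest log2 fold change over all 6 libraries was ric-4 (0.72, and 0.24 over libraries 2 and 3) and the one with the lowest unc-33 (-1.17 and -0.13). Pan-neuronal genes averaged 2.54 on the log2 scale in tryptophan 1, against 3.02 to 3.31 in the other 5 libraries, so this library was the highest for most peptide genes while low for this list. These lists hold longer transcripts, with medians of 1336 bp for pan-neuronal genes, 1798 bp for processing enzymes and 2399 bp for dense core vesicle genes. With the length trend removed, the pan-neuronal mean was 2.69 in tryptophan 1, against 2.93 to 3.22 in the other 5. In that setting tryptophan 1 also had the lowest mean of the 6 libraries for each peptide family. Its means were 3.55 for flp, 2.67 for nlp and 1.47 for ins. Among 50 receptor genes that reached the floor, of 105 listed, 30 lay above and 20 below a log2 fold change of 0, with a median of 0.06, and 0.01 over libraries 2 and 3. The receptor gene dmsr-4 was lower at an unadjusted p only, with 4.92, 1.796 and 0.988 FPKM in control libraries and 0.342, 0.455 and 0.239 FPKM in tryptophan libraries. The log2 fold change was -1.25 (SE 0.43, limma adjusted p = 0.805), and -0.81 over libraries 2 and 3. frpr-11, another receptor gene, had 1.57, 2.25 and 2.28 FPKM in control libraries and 3.66, 3.88 and 3.13 FPKM in tryptophan libraries. In neither gene did the groups overlap, and the log2 fold change of frpr-11 was 0.59 (SE 0.34, limma adjusted p = 0.805).

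The insulin receptor pathway had 2 positive and 9 negative log2 fold changes among 11 genes, with a median of -0.81 over all 6 libraries. Over libraries 2 and 3 the median was 0.17 and all 11 were positive. Transcripts of this list are long, with a median of 2191 bp. Of all genes of 2001 to 3000 bp, 33.5% were positive over all 6 libraries and 19.5% negative over libraries 2 and 3. daf-2 had 24.6, 8.96 and 4.65 FPKM in control libraries and 0.681, 14.2 and 9.34 FPKM in tryptophan libraries, and daf-16 had 44.9, 23.9 and 16.7 FPKM in control libraries and 4.59, 32.2 and 25.6 FPKM in tryptophan libraries. In both, tryptophan 1 was the lowest library and control 1 the highest, and the groups overlapped. Their log2 fold changes were -0.82 (SE 0.94) and -0.68 (SE 0.75) over all 6 libraries and 0.74 and 0.50 over libraries 2 and 3.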

How the data were processed

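RNA of whole animals was measured in 3 control and 3 tryptophan libraries. FPKM values, 1 table for each library, are what the authors deposited, per the file headers. Bowtie 0.12.2, StringTie and the WBcel235 build are named in the submitters' processing notes. The sources used here do not give the annotation release, strandedness or scaling. Symbols and coordinates (1-based) come from WBcel235 annotations, Ensembl release 115, with 4 of the 116 members (nlp-10, nlp-88, nlp-89, nlp-99) so named by RefSeq alone. 46183 of the 46589 identifiers matched.

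The members and lists were chosen with earlier results of these data known. Values were analysed as log2(FPKM + 1), which understates changes of low genes. Genes with mean FPKM of at least 0.5 (14990) were tested with limma 3.58.1 in R 4.3.3 (linear model on group, eBayes with trend, two-sided, Benjamini-Hochberg over all of them, threshold 0.05). A log2 fold change is tryptophan minus control. Exact permutation was not used, since 0.1 is the smallest p that 3 against 3 allows. Named genes were, in each family, the 3 with the smallest p in each direction and the 3 with the highest mean, with the smallest p in each direction in each related list, and daf-28, egl-3, egl-21, daf-2 and daf-16. Other genes named for a known role, a flat or wide range or a position were chosen after their values were seen.

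Depth was estimated from the product of FPKM and length in 12496 genes with a single transcript. Of the low values, 69.9% to 72.7% lay within 0.2 steps, on either side, of a whole multiple of a step. The step was the one that fitted these values best, and evenly spread values would often fall within that margin too. Depths and counted units are therefore rough estimates. No counts were rebuilt. The fit was tested on simulated data. Alternatives were pseudocounts of 0.1 and 0.5, no floor or floors of 1 and 5 FPKM, median rescaling, quantile normalization, TPM, a replicate block, eBayes without trend or robust, each library left out, libraries 2 and 3 only, and, added after seeing the data, removal of each library's length trend.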

Additional observations from a re-analysis of the deposited data

How the results depend on the processing

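The number of peptide genes past the test was 0 in each of the 20 alternatives for flp, nlp and ins, so no call depended on a setting. Family medians of log2 fold change with 1 library left out ranged from -0.195 to 0.240 for flp, from -0.056 to 0.376 for nlp and from -0.157 to 0.375 for ins, and the flp median was also negative without control 1 (-0.057) and after median rescaling (-0.018). The ins median was 0.767 at a mean FPKM of at least 5, which kept 5 genes. Rescaling to TPM, which gives every library the same sum, put the medians at 0.154 for flp, 0.281 for nlp and 0.241 for ins. The median over all genes was then 0.086. Among related genes, 3 were called over libraries 2 and 3 with the length trend removed (nlp-31, nlp-33 and nlp-25, of the epidermal genes left out), against 0 otherwise. Calls in that setting were not particular to these 3 genes. Genes called there were a small share of all genes tested, and most of them lay outside the peptide and related lists. The share called was larger among the epidermal genes left out. Over the same libraries without length removal, only 2 of all genes tested were called. Deviations of same-numbered libraries from their group means did not go together (correlations -0.363, -0.280 and -0.329). Since library 1 of each group stood apart, these values cannot tell whether the replicates were paired. With a replicate block 0 genes were called. Both groups have the same library numbers, so a block leaves each log2 fold change as it is. The medians of 0.052 for flp, 0.184 for nlp and 0.180 for ins therefore could not differ from the main ones.

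Of 1026 values for 52 named genes, 962 kept their direction and 64, in 25 genes, reversed. The cause was not tested. Changes of floor, the replicate block and the eBayes variants leave a gene's log2 fold change as it is. Their values could not reverse, so the 962 overstate how stable the directions were. Over libraries 2 and 3, reversed log2 fold changes were flp-1 -0.56, flp-9 -0.40, flp-22 -0.11, flp-12 -0.59, flp-15 -0.39, ins-27 -0.42, ins-37 -0.28, ins-33 -0.25, ins-34 0.08, nlp-36 -0.22, nlp-40 -0.10, egl-3 0.39, daf-16 0.50, daf-18 0.17, daf-2 0.74, lury-1 -0.57, nlp-34 -0.63, vit-6 1.04, msp-74 -0.20 and ges-1 -0.16. With the length trend removed as well they were flp-1 -0.34, flp-9 -0.17, flp-12 -0.36, flp-15 -0.11, ins-27 -0.11, ins-37 -0.13, ins-34 0.35, egl-3 0.25, daf-16 0.46, sgk-1 -0.01, daf-2 0.18, daf-28 0.00, lury-1 -0.30, nlp-34 -0.34, vit-6 0.50, ges-1 -0.23 and bli-1 -0.00. Removing the length trend alone gave nlp-36 -0.05 and nlp-40 -0.15, median rescaling nlp-40 -0.01, quantile normalization nlp-24 0.06 and TPM nlp-24 0.10. With 1 library left out, values ran from -0.34 to 0.65 for flp-1, -0.12 to 0.73 for flp-9, -0.07 to 0.94 for flp-22, -0.16 to 1.05 for flp-12, -0.10 to 0.92 for flp-15, -0.02 to 1.31 for ins-27, -0.85 to 0.02 for ins-34, -1.03 to 0.54 for nlp-24, -0.27 to 0.56 for nlp-36, -0.25 to 0.25 for nlp-40, -1.71 to 0.26 for egl-3, -1.16 to 0.12 for daf-16, -1.44 to 0.15 for daf-2, -0.16 to 0.75 for lury-1, -0.36 to 0.86 for myo-3, -0.01 to 0.44 for ges-1 and -0.09 to 1.77 for bli-1. Depth limits the lowest genes: nlp-23 rested on 30.5 counted units over the 6 libraries, and a difference of a few units was not detectable.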

Other observations

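The peptide genes that bear other names, 8 in number, had group values that overlapped, and 0 passed the test. pdf-1, a pigment-dispersing factor gene that acts in locomotor arousal, had 14.9, 19.3 and 26.1 FPKM in control libraries and 29.5, 19.4 and 21.6 FPKM in tryptophan libraries. pdf-2 had 1.76, 8.66 and 9.75 FPKM in control libraries and 18.01, 3.86 and 6.79 FPKM in tryptophan libraries. Their log2 fold changes were 0.23 and 0.44 over all 6 libraries and -0.13 and -0.73 over libraries 2 and 3. Over libraries 2 and 3 all 8 log2 fold changes were at or below 0, with a median of -0.34.

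The epidermal antimicrobial nlp genes left out of the family, of which 9 of 10 reached the floor, had a median log2 fold change of 0.30 over all 6 libraries and -1.23 over libraries 2 and 3. nlp-33 had 21.8, 133.7 and 133.0 FPKM in control libraries and 325.2, 51.3 and 44.4 FPKM in tryptophan libraries. nlp-31 had 4.98, 20.2 and 19.3 FPKM in control libraries and 132.3, 6.59 and 7.76 FPKM in tryptophan libraries. In both genes tryptophan 2 and 3 lay below control 2 and 3, and tryptophan 1 was the highest library.

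nlp-88 had 5.86, 4.38 and 5.07 FPKM in control libraries and 4.12, 8.03 and 7.06 FPKM in tryptophan libraries. It had the highest log2 fold change of the peptide genes over libraries 2 and 3, 0.58, with tryptophan 1 the lowest of the 6 libraries.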
